A study of Homo sapiens with 6 samples.

Results

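The genes described here are the sensors of double-stranded RNA in human cells with their adaptors, the kinase and transcription factor they feed into, and the RNA-editing enzyme ADAR. They were taken from a fixed list by gene symbol: 10 symbols were listed, and all 10 were found once each among the 20532 genes of the count table. The mRNA of MDA-MB-231 M3 cells, which the labels describe as bone-metastatic human breast cancer cells, was sequenced with a stranded kit. The groups were 3 libraries of cells in which PRMT1, the main enzyme for asymmetric dimethylation of protein arginine, was knocked down with a small interfering RNA (siPRMT1), and 3 libraries of control cells. All groups share the same cell line, which carries no other stated genetic change. The labels describe the controls only as untreated or control cells. No source used here states whether they received a transfection reagent or a control siRNA, so loss of PRMT1 and delivery of a double-stranded RNA cannot be told apart in this comparison.

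Double-stranded RNA is a sign of viral infection, and cells also meet it when it is delivered as siRNA or made from their own repeats. In the cytosol, the helicases RIG-I (gene RIGI) and MDA5 (IFIH1) bind it and assemble the mitochondrial adaptor MAVS, while in endosomes the receptor TLR3 signals through the adaptor TRIF (TICAM1). Both routes activate the kinase TBK1, which phosphorylates IRF3, the transcription factor that switches on interferon genes. PKR (EIF2AK2) instead halts translation by phosphorylating eIF2 alpha, and ADAR converts adenosines in double-stranded RNA to inosines, which keeps the cell's own RNA from being sensed. Several of these genes are themselves induced by interferon through a promoter element whose core reads GAAANNGAAA.

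The promoters of the 4 genes in which this core, or a form with 1 base less in the middle (GAAANGAAA), was found are printed here as the windows that carry it among the listed genes; the letters are a description of the window and were not tested against the fold changes. Each is given from 250 bases before to 20 bases from the annotated start onwards, in the direction of the gene, from RefSeq (GRCh38.p14), with matches on either strand in capitals. These starts are not the gene limits of the count table. The EIF2AK2 window, and nearly all of the TLR3 window, lies within the span given below for the gene. RIGI lies on the minus strand at chr9:32526177-32526446, IFIH1 on the minus strand at chr2:162318665-162318934, EIF2AK2 on the minus strand at chr2:37156961-37157230 and TLR3 on the plus strand at chr4:186068906-186069175.
RIGI: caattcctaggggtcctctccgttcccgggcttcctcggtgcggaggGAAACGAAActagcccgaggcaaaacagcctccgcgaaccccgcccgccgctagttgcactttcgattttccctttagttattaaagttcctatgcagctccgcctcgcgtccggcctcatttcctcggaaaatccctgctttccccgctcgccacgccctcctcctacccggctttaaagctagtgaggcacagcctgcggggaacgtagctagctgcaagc
IFIH1: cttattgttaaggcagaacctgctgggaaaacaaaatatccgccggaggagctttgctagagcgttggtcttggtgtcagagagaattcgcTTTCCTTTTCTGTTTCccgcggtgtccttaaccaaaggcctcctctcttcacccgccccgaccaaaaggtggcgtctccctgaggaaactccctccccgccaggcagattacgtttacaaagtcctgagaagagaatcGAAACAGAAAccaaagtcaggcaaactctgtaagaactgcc
EIF2AK2: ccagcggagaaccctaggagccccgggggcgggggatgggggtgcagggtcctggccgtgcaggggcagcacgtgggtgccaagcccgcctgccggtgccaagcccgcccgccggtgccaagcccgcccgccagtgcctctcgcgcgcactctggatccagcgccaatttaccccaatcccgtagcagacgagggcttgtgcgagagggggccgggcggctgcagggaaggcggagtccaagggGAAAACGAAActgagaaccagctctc
TLR3: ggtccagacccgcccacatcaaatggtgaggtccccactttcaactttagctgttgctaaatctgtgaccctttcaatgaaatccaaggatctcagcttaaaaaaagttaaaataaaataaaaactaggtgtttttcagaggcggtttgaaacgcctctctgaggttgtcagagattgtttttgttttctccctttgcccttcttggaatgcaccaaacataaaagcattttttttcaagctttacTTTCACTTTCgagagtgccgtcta
With the annotated start as position 0, the match began at position -203 in RIGI, -6 in EIF2AK2 and -4 in TLR3. IFIH1 held 1 match on the gene's own strand beginning at -21 and an overlapping pair on the opposite strand beginning at -159 and -153. Among 35116 promoter windows of the same 270 bases, 3.30% held GAAANNGAAA, 2.90% held GAAANGAAA and 5.93% held either. The table had entries for 8 of the 10 genes. These letters are not in the windows of MAVS, TICAM1 and TBK1 or in any of the 3 entries for ADAR. DHX58 and IRF3 had no entry. Other starts and bases outside the windows were not searched, so absence here does not mean that a gene lacks the element.

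Knockdown was strong. In the siPRMT1 libraries 193, 218 and 181 reads were counted for PRMT1 (ENSG00000126457, plus strand of chromosome 19, 49675786 to 49688447 in hg38), against 3160, 2991 and 3072 in the control libraries. Total counts lay between 16968563 and 20545995 in the siPRMT1 libraries and between 17921097 and 19645127 in the control libraries, and the listed genes took between 0.0641% and 0.0662% of them against between 0.0993% and 0.100%. Mitochondrially encoded genes took between 8.64% and 8.74% of counts in siPRMT1 libraries and between 5.001% and 5.09% in control libraries. The list of markers of triple-negative breast cancer lines was summed in CPM (read counts scaled by TMM to a common library size). The sums lay between 4789 and 4842 CPM in siPRMT1 libraries and between 4219 and 4254 CPM in control libraries. VIM was the highest of the list in both groups, and SPARC the lowest, at 0.97 CPM in siPRMT1 libraries and 0.50 CPM in control libraries. KRT18 averaged 901 CPM in siPRMT1 libraries and 255 CPM in control libraries. CD44 averaged 703 CPM in siPRMT1 libraries and 1156 CPM in control libraries. Of the luminal list 1 of 4 genes passed the filter on low counts, ERBB2, which made up nearly all of the sum. This sum lay between 70.1 and 75.0 CPM in siPRMT1 libraries and between 59.9 and 63.6 CPM in control libraries. The estrogen and progesterone receptor genes ESR1 and PGR averaged at most 0.0181 CPM in siPRMT1 libraries and 0.0657 CPM in control libraries. Of 7 leukocyte markers 3 passed the filter on low counts; their sum of between 377 and 383 CPM in siPRMT1 libraries and between 204 and 208 CPM in control libraries was nearly all CD68, a lysosomal gene, while PTPRC averaged 0.0181 CPM against 0.158 CPM. Of the 5 endothelial markers 2 passed the filter, with sums between 20.3 and 21.2 CPM in siPRMT1 libraries and between 25.4 and 26.4 CPM in control libraries. The fibroblast and bone cell list had 3 of 6 past the filter and sums between 26.5 and 30.5 CPM against between 9.94 and 11.2 CPM. The part of these other markers in the results was not tested. In bulk RNA, fewer cells that express a gene and less of its RNA per cell cannot be told apart.

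Values here are without the correction for GC content and length described below, with which only IFIH1 of the sensors stayed lower. Without it, most sensors were lower after PRMT1 knockdown, while the transcription factor IRF3 and the adaptor TICAM1 were higher. Of the 10 genes, 6 fell (RIGI, IFIH1, EIF2AK2, TLR3, TBK1 and ADAR), 3 rose (DHX58, TICAM1 and IRF3) and MAVS did not pass. Passing meant a Benjamini-Hochberg adjusted p under 0.05 in edgeR's quasi-likelihood test over all genes. The background is high: of all 13710 tested genes, 89.3% passed, 44.3% as higher and 45.0% as lower. A share of 9 of 10 is thus near that of all genes. The CPM values of siPRMT1 and control libraries did not overlap for the same 9 genes, against 89.1% of all tested genes. A fold change of at least 2 was found for EIF2AK2 and TLR3, which fell, and for IRF3, which rose; over all tested genes the shares were 21.0% lower and 15.3% higher. The median log2 fold change (siPRMT1 minus control throughout) was -0.72 over the 10 genes and -0.0082 over all tested genes. The samples are labelled as biological replicates, but separate transfections are not named, so the p-values rest on a spread that may be technical.

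**Figure D1:**
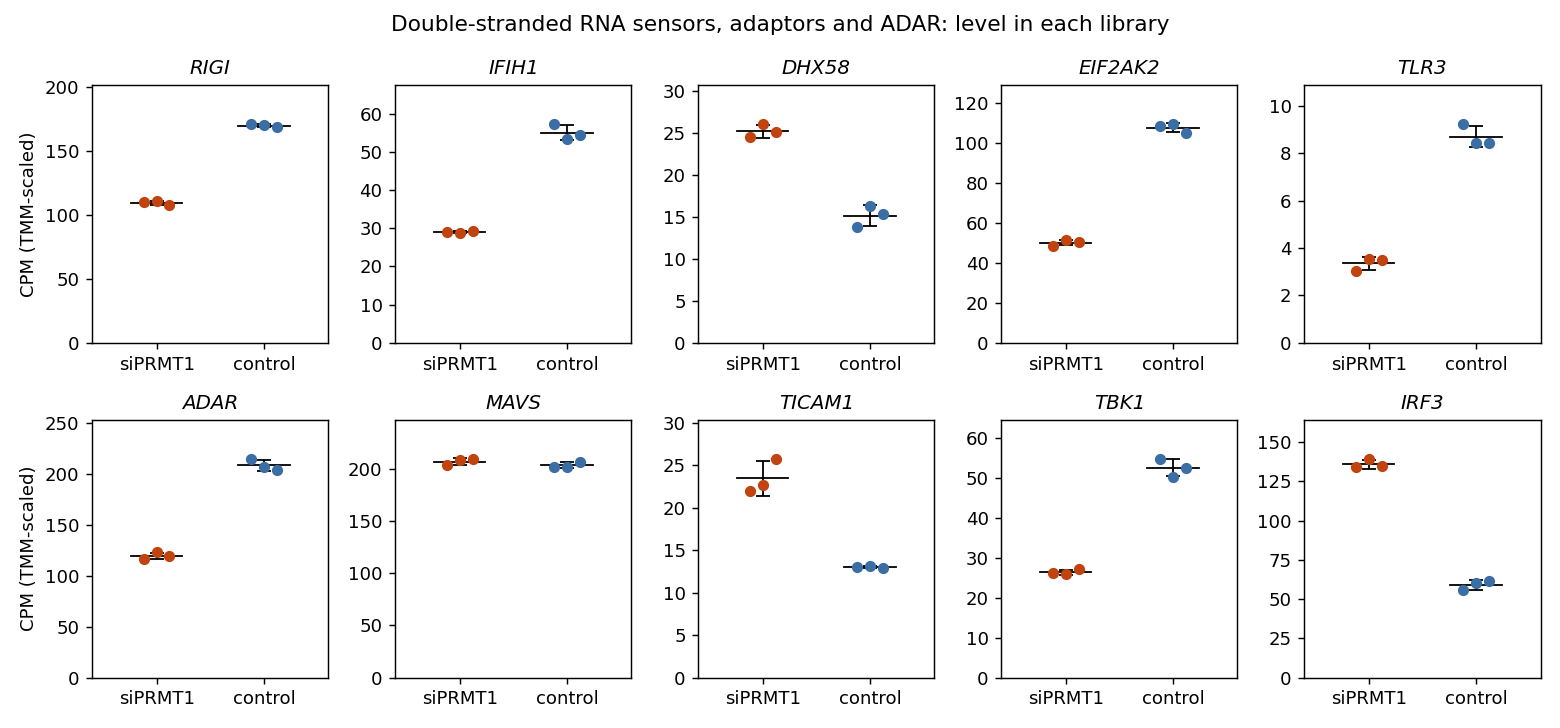
Level of each gene in each library, in TMM-scaled CPM on a linear axis from 0; points are libraries, the bar and whiskers the mean and SD of 3. Points of siPRMT1 and control libraries are separate for every gene except MAVS, where 203 to 209 CPM in siPRMT1 libraries meets 201 to 206 CPM in control libraries.

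Across the genome, fold changes in this comparison followed the GC content and length of the transcript, and the listed genes followed the same trend. Each gene is therefore also given with a corrected value, in which splines on GC content and length of the canonical transcript were removed from every library. The splines were fitted to these same libraries, so they also remove any real difference that runs with GC content or length. The corrected p-values do not carry the uncertainty of that fit, and no other transcript length was tried in it. With the correction only 3 of the 6 genes that fell still did so (IFIH1, ADAR and TBK1). RIGI and EIF2AK2 then were higher, as was MAVS, and the other 4 did not pass; 37.5% of all tested genes passed as higher and 42.7% as lower with the correction. The corrected median was -0.036 over the 10 genes and -0.048 over all tested genes.

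RIGI encodes RIG-I, the sensor of short double-stranded RNA with triphosphate ends (ENSG00000107201; hg38, chromosome 9, 32455302 to 32526348, minus strand). It stood at 110, 111 and 108 CPM in the siPRMT1 libraries and at 171, 170.4 and 169 CPM in the control libraries. All 3 siPRMT1 libraries were below all control libraries, and the SDs within the groups were 1.36 and 1.12 CPM. The log2 fold change was -0.63 (SE 0.026; adjusted p = 8.41e-87), or 1.55-fold lower, and the corrected value was 0.21 (adjusted p = 2.04e-10), in the opposite direction. RIGI shares exonic sequence with another gene entry on the same strand, ENSG00000288684, over 43.2% of RIGI's annotated exonic bases in GENCODE 44. That entry had 1824, 2093 and 1695 reads in siPRMT1 libraries and 3811, 3480 and 3641 in control libraries, in each library between 49 and 70 reads more than RIGI itself. The counts of both entries thus track each other closely, and no source used here states how reads shared between them were assigned.

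IFIH1 encodes MDA5, the sensor of long double-stranded RNA (ENSG00000115267; chromosome 2, 162267074 to 162318475, minus strand). Its levels were 29.0, 28.7 and 29.2 CPM in siPRMT1 libraries against 57.2, 53.3 and 54.5 CPM in control libraries. The groups were far apart, and the siPRMT1 libraries lay within 1 CPM of each other. This gave a log2 fold change of -0.93 (SE 0.045; adjusted p = 3.64e-69). IFIH1 is 1 of the 3 genes that stayed lower in the corrected comparison, at -0.46 (adjusted p = 3.42e-14).

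DHX58 encodes LGP2, a relative of RIG-I and MDA5 that lacks their signalling domains and modulates both (ENSG00000108771; chromosome 17, 42101404 to 42112714, minus strand). In contrast to its relatives it was higher, with 24.4, 26.0 and 25.0 CPM in siPRMT1 libraries and 13.8, 16.2 and 15.3 CPM in control libraries. The lowest siPRMT1 library exceeded the highest control library by a wide margin. LGP2's gene rose by 0.74 on the log2 scale (SE 0.063; adjusted p = 2.01e-28), and the corrected value of 0.0079 did not pass (adjusted p = 0.909). Ratios of reads within a library do not depend on the scaling between libraries. There were 0.229 ± 0.0066 DHX58 reads for each RIGI read in siPRMT1 libraries and 0.0890 ± 0.0074 in control libraries (SD, n = 3 each), a ratio 2.58 times as high. The ratio is not free of the trend with GC content and length: in the corrected comparison DHX58, at 0.0079, was below RIGI, at 0.21. Per IFIH1 read, DHX58 gave 0.869 ± 0.032 reads in siPRMT1 libraries and 0.276 ± 0.032 in control libraries.

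EIF2AK2 encodes PKR, the kinase that stops translation on binding double-stranded RNA (ENSG00000055332; chromosome 2, 37099210 to 37157522, minus strand). It had 48.6, 51.6 and 50.5 CPM in the siPRMT1 libraries and 108, 109 and 105 CPM in the control libraries. Every siPRMT1 library held less than any control library, by a factor of about 2. On the log2 scale it fell by 1.10 (SE 0.034; adjusted p = 4.15e-125). Its canonical transcript is long, at 9975 bases, and low in GC, at 38.5%; the corrected value was 0.21 (adjusted p = 1.35e-07), higher in siPRMT1 cells. GPATCH11 on the opposite strand shares 0.317% of its exonic bases.

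TLR3 encodes the endosomal receptor (ENSG00000164342; chromosome 4, 186068911 to 186085024, plus strand) and was the least abundant of the listed genes. It had 49, 65 and 53 reads in siPRMT1 libraries and 202, 169 and 179 reads in control libraries, or 3.04, 3.53 and 3.48 CPM against 9.22, 8.45 and 8.42 CPM. The groups did not overlap, and its log2 fold change of -1.37 (SE 0.12; adjusted p = 1.76e-27) was the lowest of the 10, with the largest standard error. The corrected value was -0.21 and did not pass (adjusted p = 0.112). At this depth TLR3 is measured less precisely than the others.

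ADAR, the editing enzyme (ENSG00000160710; chromosome 1, 154581695 to 154628004, minus strand), had 116, 123 and 119 CPM in siPRMT1 libraries and 215, 207 and 204 CPM in control libraries. All siPRMT1 libraries were lower. ADAR had a log2 fold change of -0.80 (SE 0.025; adjusted p = 1.95e-126) and a corrected value of -0.35 (adjusted p = 1.24e-17). Gene counts do not separate the interferon-induced long isoform of ADAR from the constitutive short one. Set against 2 sensors that also fell without the correction, there were 1.09 ± 0.030 ADAR reads per RIGI read in siPRMT1 libraries and 1.23 ± 0.026 in control libraries, and 2.38 ± 0.015 per EIF2AK2 read against 1.94 ± 0.046 (SD, n = 3 each). These ratios carry the trend with GC content and length. In the corrected comparison ADAR, at -0.35, was below both RIGI and EIF2AK2, each at 0.21.

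MAVS, the mitochondrial adaptor downstream of RIG-I and MDA5 (ENSG00000088888; chromosome 20, 3846799 to 3876123, plus strand), had 203, 208 and 209 CPM in siPRMT1 libraries and 201, 202 and 206 CPM in control libraries. The groups overlapped. The log2 fold change of 0.025 (SE 0.022) did not pass (adjusted p = 0.271), and its sign turned with upper-quartile scaling (-0.022) and with library size alone (-0.29, where the median of all tested genes was -0.33). The corrected value was 0.54 (adjusted p = 7.05e-28), the highest corrected value among the 10; its canonical transcript is the longest of them, at 11731 bases. Relative to its sensor, MAVS gave 1.89 ± 0.045 reads per RIGI read in siPRMT1 libraries and 1.19 ± 0.025 in control libraries (SD, n = 3 each); the corrected values were 0.54 for MAVS and 0.21 for RIGI.

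TICAM1 encodes TRIF, the adaptor of TLR3 (ENSG00000127666; chromosome 19, 4815932 to 4831712, minus strand). Its levels were 22.0, 22.7 and 25.8 CPM in siPRMT1 libraries against 13.1, 13.1 and 12.9 CPM in control libraries, with no overlap. The log2 fold change was 0.84 (SE 0.066; adjusted p = 1.49e-32), while the corrected value of -0.051 did not pass (adjusted p = 0.482). Receptor and adaptor of the endosomal route moved in opposite directions before the correction: 7.01 ± 0.52 TICAM1 reads stood against each TLR3 read in siPRMT1 libraries and 1.50 ± 0.075 in control libraries (SD, n = 3 each). With the correction neither gene passed, TICAM1 at -0.051 and TLR3 at -0.21.

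TBK1 encodes the kinase on which both routes converge (ENSG00000183735; chromosome 12, 64452090 to 64502114, plus strand). It had 26.1, 25.9 and 27.1 CPM in siPRMT1 libraries and 54.6, 50.3 and 52.5 CPM in control libraries. Every siPRMT1 library lay far below every control library. TBK1 had a log2 fold change of -0.997 (SE 0.047; adjusted p = 4.55e-73), just short of a 2-fold change, and -0.25 with the correction (adjusted p = 1.92e-06).

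IRF3, the substrate of TBK1 (ENSG00000126456; chromosome 19, 49659569 to 49665780, minus strand), showed the highest rise of the 10. It had 134, 139 and 135 CPM in siPRMT1 libraries and 55.7, 60.0 and 61.9 CPM in control libraries. No siPRMT1 library came near a control library. The log2 fold change was 1.20 (SE 0.031; adjusted p = 3.98e-155), or 2.30-fold higher, and 90.5% of all tested genes had a lower value. With the correction it was -0.020 and did not pass (adjusted p = 0.549); its canonical transcript is the shortest of the 10, at 1595 bases, with 61.3% GC. There were 5.16 ± 0.20 IRF3 reads per TBK1 read in siPRMT1 libraries and 1.13 ± 0.097 in control libraries (SD, n = 3 each), 4.57 times as many; the corrected values of IRF3 (-0.020) and TBK1 (-0.25) lay much closer together. On the opposite strand, BCL2L12 shares 19.3% of the exonic bases of IRF3 and rose as well (log2 fold change 1.30, -0.067 corrected). No source used here gives the strand setting of the counting, so reads in the shared part may have been counted for either gene.

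**Figure D2:**
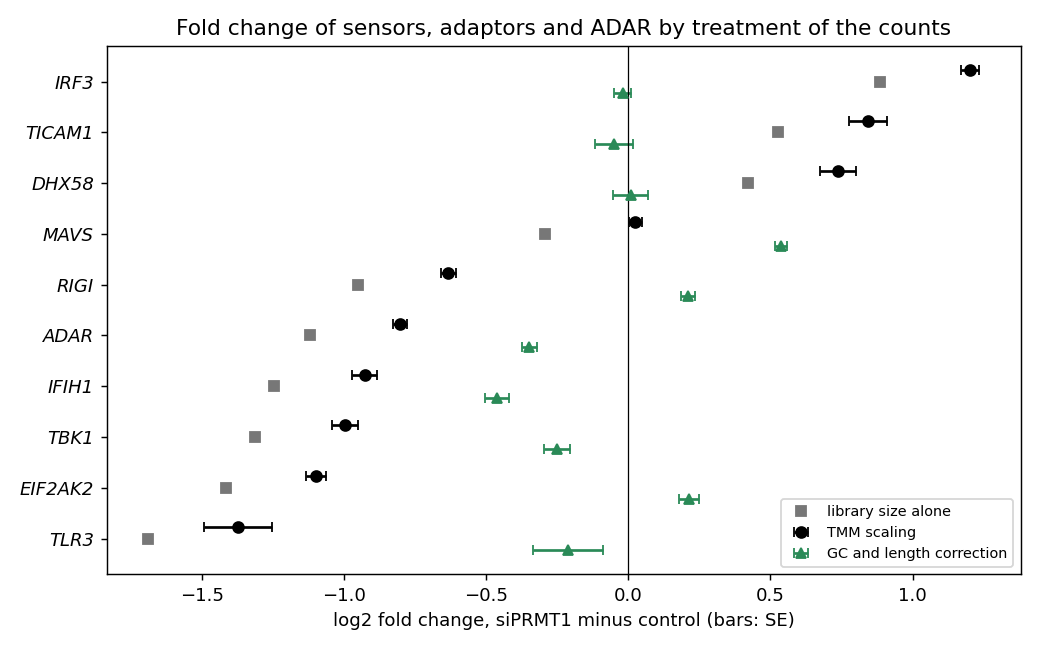
Log2 fold change, siPRMT1 minus control, of each gene with TMM scaling (circles, bars SE), with library size alone (squares) and after the GC and length correction (triangles, bars SE). Corrected values lie between -0.46 for IFIH1 and 0.54 for MAVS, against a span between -1.37 for TLR3 and 1.20 for IRF3 without the correction.

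The direction of change followed the order of base composition. The canonical transcripts of the 6 genes that fell had GC contents between 37.0% for TBK1 and 50.0% for ADAR, MAVS had 52.1%, and the 3 that rose had 58.5% (DHX58), 61.3% (IRF3) and 63.0% (TICAM1). The Spearman correlation between GC content and log2 fold change was 0.92 across the 10 genes and 0.65 across 13694 tested genes, given as a description because genes of one set of libraries share their depth and composition. With transcript length it was -0.56 across both the 10 genes and all tested genes. Tested genes were divided into 5 classes of equal size by GC content. The class from 30.7% to 40.8% GC, which includes TLR3, EIF2AK2, TBK1 and RIGI, had a median of -0.99 on the log2 scale (2739 genes). The next class, up to 45.7% and with IFIH1, had -0.55 (2739 genes), and the middle class, up to 52.1% and with ADAR, had -0.093 (2738 genes). DHX58 and MAVS belong to the class up to 58.6%, with a median of 0.48 (2739 genes), and IRF3 and TICAM1 to the class above it, with 0.90 (2739 genes). ADAR at -0.80 and MAVS at 0.025 lay farthest below the medians of their classes. RIGI at -0.63, IRF3 at 1.20 and DHX58 at 0.74 lay above the medians of theirs, and TBK1 at -0.997 lay next to that of its class. The part of base composition in the fold changes was not tested beyond the correction.

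**Figure D3:**
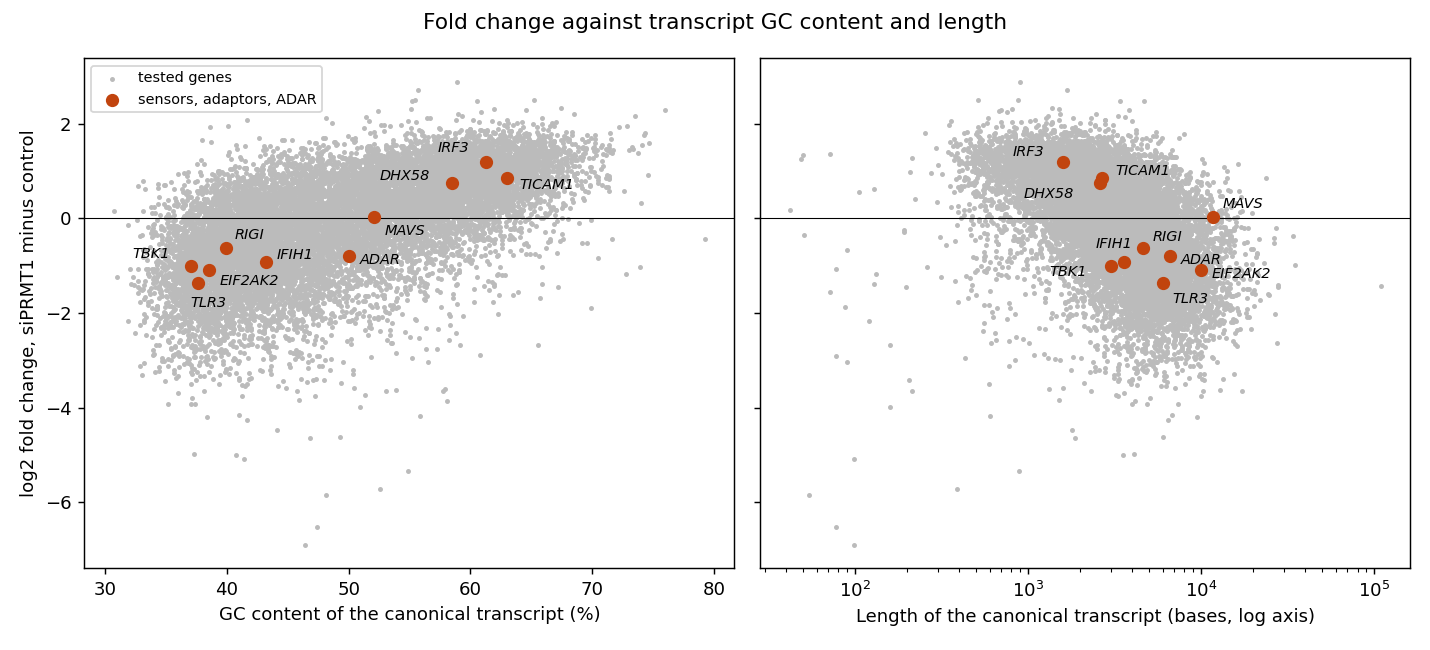
Log2 fold change, siPRMT1 minus control, against GC content in percent (left) and length in bases on a log axis (right) of the canonical transcript; grey points are tested genes, coloured points the 10 listed genes. IRF3, TICAM1 and DHX58 sit at the GC-rich, short end above 0, and TLR3, EIF2AK2 and TBK1 at the GC-poor end below 0.

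Levels of different genes can be compared only per length. Per kilobase of the length in the count table, the order in siPRMT1 libraries was IRF3 (35.8 ± 0.76 CPM per kb), MAVS (17.6 ± 0.27), RIGI (10.5 ± 0.13), ADAR (9.29 ± 0.26), TICAM1 (8.74 ± 0.75), DHX58 (6.58 ± 0.20), IFIH1 (5.54 ± 0.043), EIF2AK2 (4.55 ± 0.13), TBK1 (1.79 ± 0.042) and TLR3 (0.447 ± 0.036; SD, n = 3). Only ADAR and TICAM1 overlapped between neighbours in that order. In control libraries the order was MAVS (17.3 ± 0.24), RIGI (16.2 ± 0.11), ADAR (16.2 ± 0.43), IRF3 (15.6 ± 0.84), IFIH1 (10.5 ± 0.38), EIF2AK2 (9.76 ± 0.19), TICAM1 (4.85 ± 0.047), DHX58 (3.96 ± 0.32), TBK1 (3.57 ± 0.15) and TLR3 (1.16 ± 0.061). There RIGI, ADAR and IRF3 overlapped with their neighbours, as did DHX58 and TBK1. By this length and without the correction, IRF3 thus moved to the top of the order in siPRMT1 cells, and IFIH1 and EIF2AK2 dropped below TICAM1 and DHX58. These shifts carry the trend with GC content and length. Corrected log2 fold changes were -0.020 for IRF3, -0.46 for IFIH1, 0.21 for EIF2AK2, -0.051 for TICAM1 and 0.0079 for DHX58. The order depends on which length is used: per kilobase of the canonical transcript, TBK1 stood at 8.72 ± 0.20 in siPRMT1 libraries and 17.4 ± 0.72 in control libraries, well above its values with the longer length. IRF3 was first in siPRMT1 libraries and TLR3 last in both groups with either length; with the canonical transcript IRF3 also came first in control libraries, at 37.1 ± 1.99, overlapping RIGI at 36.8 ± 0.24.

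**Figure D4:**
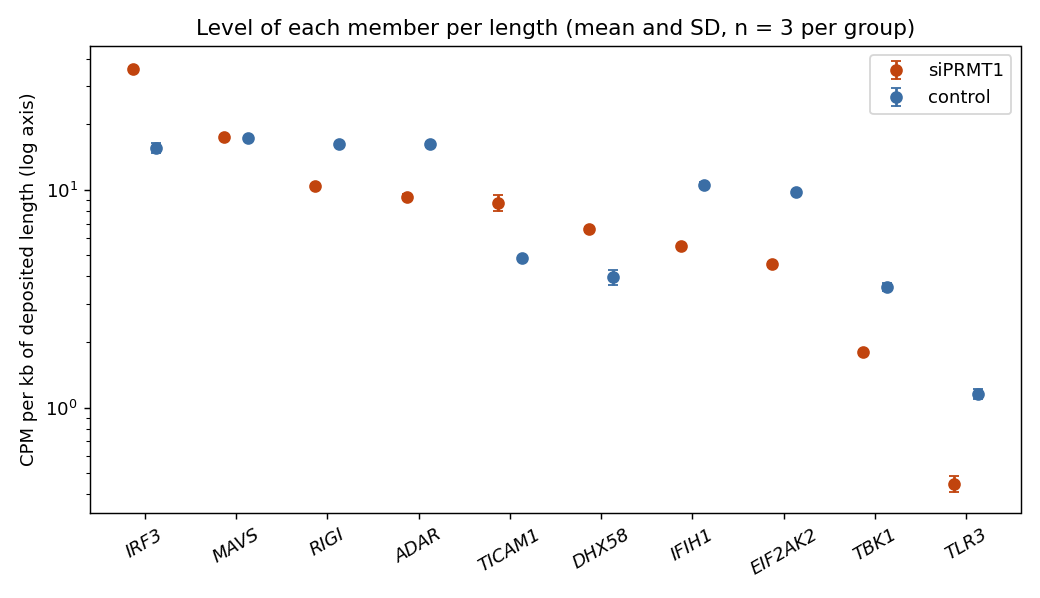
Level of each gene in CPM per kilobase of the length in the count table, on a log axis, as mean and SD of 3 libraries; siPRMT1 left of control for each gene. In siPRMT1 cells IRF3 at 35.8 stands above all others, and in control cells MAVS, RIGI, ADAR and IRF3 lie between 15.6 and 17.3.

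Genes around the sensors also moved in both directions. Over 11 lists with 155 genes, 140 were tested, of which 57 rose and 76 fell, and the median over the 140 was -0.19 on the log2 scale, or -0.11 corrected. With the correction 49 rose and 71 fell. Beside every count that follows stand the shares of all tested genes, 44.3% higher and 45.0% lower without the correction and 37.5% higher and 42.7% lower with it. In the following, each gene's log2 fold change is followed by its corrected value. Among the cofactors of the sensors, which include helicases, ubiquitin ligases, phosphatase subunits and other proteins, 5 of 18 tested genes rose and 13 fell, with a median of -0.46 (corrected -0.065); with the correction 7 rose and 8 fell. The RNA helicase gene DDX3X (-1.90, -1.10), at 129 ± 4.07 CPM in siPRMT1 libraries and 482 ± 7.48 CPM in control libraries, and DDX60 (-1.65, -0.57), a helicase gene induced by interferon, fell most. TARBP2 (1.37, 0.17), which encodes a partner of Dicer that also restrains PKR, and the phosphatase gene PPP1CA (1.11, -0.066), whose rise turned with the correction, rose most. TRIM25 (-0.67, -0.37) and RNF135 (0.58, -0.065), both ubiquitin ligase genes acting on RIG-I, moved in opposite directions before the correction. ZC3HAV1, the gene of the zinc finger antiviral protein, had -0.92 and -0.072.

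Proteins that limit signalling were divided, with 8 of 18 higher, 10 lower and a median of -0.14 (corrected -0.11, with 7 higher and 10 lower). USP21 (1.35, 0.61), a deubiquitinase gene, and RNF5 (1.26, 0.35), a ubiquitin ligase gene, rose. The deubiquitinase gene CYLD (-1.66, -0.49) and the ligase gene ITCH (-1.55, -0.43), whose product acts on MAVS, fell. Among the TRAF adaptors and the kinases next to TBK1, 6 of 16 rose and 9 fell (median -0.16, corrected -0.083 with 5 higher and 8 lower). CHUK (-2.12, -1.39), which encodes IKK alpha, and TANK (-1.73, -1.21), a scaffold of TBK1, fell. TRAF2 (1.07, 0.10) and TRADD (0.87, -0.50), whose rise turned with the correction, were higher, and IKBKE (0.63, 0.050), the closest relative of TBK1, rose while TBK1 itself fell.

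Of the other interferon regulatory factors and their binding partners, 8 of 11 were tested, 4 rose and 3 fell (median 0.21, corrected -0.19 with 3 higher and 4 lower, and -0.10 with library size alone). IRF7 (1.41, 0.18), the amplifier of interferon production, and the corepressor gene IRF2BP1 (1.34, 0.30) rose, and IRF2BPL (-1.19, -1.78) and IRF2 (-0.66, -0.64) fell. In the branch of oligoadenylate synthetases and RNase L, 2 of 7 rose and 5 fell (median -0.40, corrected -0.15 with 2 higher and 3 lower). OASL (1.32, 1.23), which encodes a catalytically inactive relative that enhances RIG-I signalling, reached 218 ± 3.77 CPM in siPRMT1 libraries against 87.5 ± 1.08 CPM in control libraries, and OAS1 (0.53, -0.023), whose sign turned, also rose. ABCE1 (-1.41, -0.39), an inhibitor of RNase L, and PDE12 (-1.27, -0.15), an enzyme that degrades its activator, fell.

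Transcripts of the interferons themselves were scarce. IFNB1, the classic product of IRF3 activation, had 0 reads in every library of both groups, a count that allows up to 0.137 to 0.197 CPM (3 reads per library, counting error only). IFNL1 had 17, 11 and 9 reads in siPRMT1 libraries and 5, 13 and 5 in control libraries, which overlap, and was not tested because of its low counts. Of 10 tested receptor and JAK-STAT genes 4 rose and 5 fell (median -0.27, corrected -0.14 with 1 higher and 3 lower). The receptor gene IFNAR1 (-0.86, 0.032), which turned with the correction, fell. SOCS1 (1.27, -0.19), a feedback inhibitor whose rise also turned, and the kinase gene TYK2 (0.55, 0.026) rose.

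Direct targets of IRF3 and interferon showed no common direction, with 4 of 15 higher, 8 lower and a median of -0.12 (corrected -0.072, with 5 higher and 7 lower). ISG15 (1.29, -0.15), a ubiquitin-like modifier gene, and IFI6 (1.26, 0.15) rose; the sign of ISG15 turned with the correction. PMAIP1 (-2.02, -1.60), the gene of the death factor NOXA, and IFIT2 (-1.11, -0.59) fell, while the related IFIT3 rose slightly (0.089, 0.21). CXCL10 (0.068, 0.19) and MX1 (0.075, -0.15) did not pass without the correction. Around PKR, 11 of 16 genes rose and 5 fell (median 0.24, corrected 0.32 with 9 higher and 7 lower, but -0.075 with library size alone). ATF4 (1.32, 0.52), the stress transcription factor translated when eIF2 is phosphorylated, and EIF2B4 (1.12, 0.34), a subunit of the exchange factor of eIF2, rose, whereas EIF2S3 (-1.60, -1.02), a subunit of eIF2, and DNAJC3 (-1.36, -0.39), an inhibitor of PKR, fell.

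Of 12 tested genes for other proteins that bind double-stranded RNA 2 rose and 9 fell, with a median of -0.63 (corrected -0.16, with 3 higher and 8 lower). STAU2 (-1.95, -1.54), an RNA transport factor gene, and DICER1 (-1.61, -0.39), the microRNA processing enzyme gene, fell. ILF2 (0.56, 0.43) and DGCR8 (0.15, 0.051), the partner of Drosha, rose; DGCR8 lost its call with DESeq2, with upper-quartile scaling, with the correction and without siPRMT1 replicate 1 (0.13, adjusted p = 0.0676), and turned with library size alone (-0.17). ADARB1, the second active editing enzyme gene, did not pass without the correction (0.13, 0.39). In the endosomal pathway 6 of 12 tested rose and 6 fell (median -0.028), but with the correction 2 rose and 9 fell (median -0.13). The chaperone gene CNPY3 (1.09, -0.12), which turned, and TLR7 (0.61, 1.45) rose, and the adaptor gene TICAM2 (-1.06, -0.59) and the kinase gene IRAK4 (-0.73, -0.075) fell; TLR7 had 2.83 CPM in siPRMT1 libraries and 1.84 CPM in control libraries and did not pass with library size alone. In the pathway of cytosolic DNA sensing 5 of 9 rose and 4 fell (median 0.34, corrected 0.14 with 5 higher and 4 lower). STING1 (1.56, 0.78), its adaptor, rose while the sensor CGAS (-1.86, -1.50) fell, and TREX1 (1.12, -0.29), a DNA exonuclease gene that turned with the correction, and PRKDC (-2.16, -1.20) were the other extremes.

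**Figure D5:**
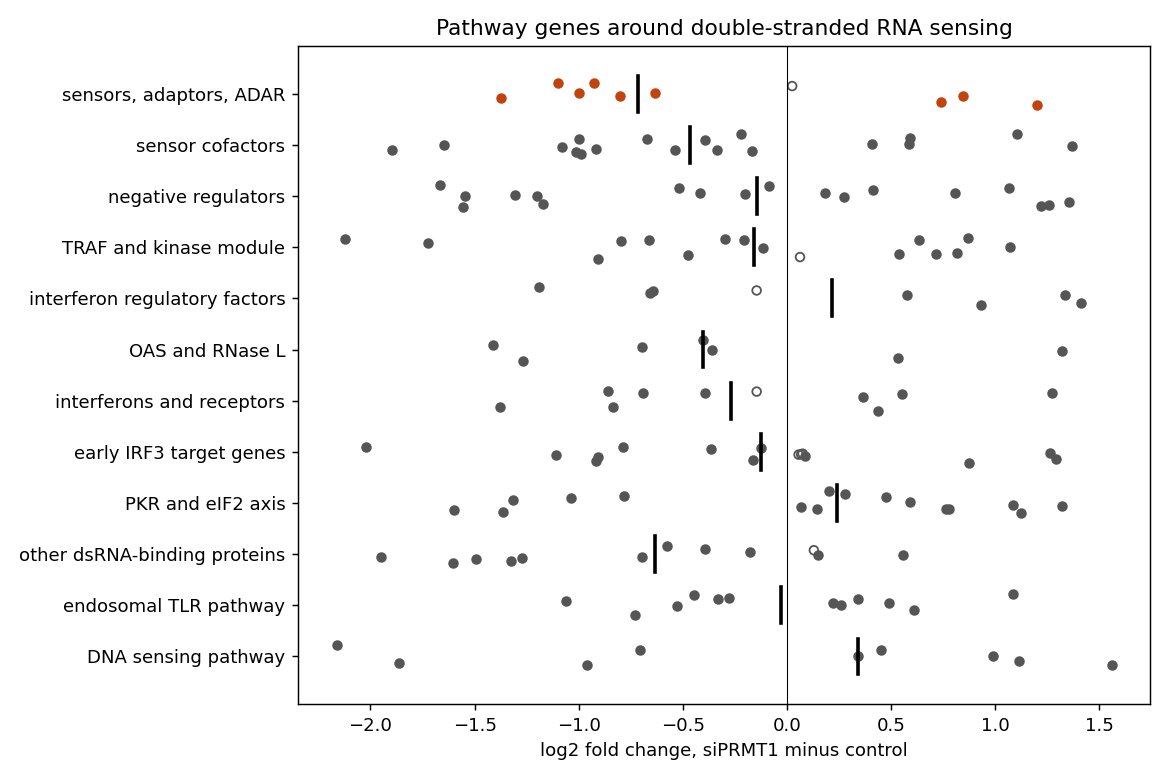
Log2 fold change, siPRMT1 minus control, of every tested gene in the 10 listed genes (top, coloured) and in 11 lists around them; filled points passed the test, open points did not, and vertical bars are medians. Every list holds genes on both sides of 0, with medians between -0.72 for the 10 listed genes and 0.34 for DNA sensing.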

How the data were processed

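RNA was sequenced as pairs of 150 bases from 3 siPRMT1 and 3 control libraries. Per the file headers, the table deposited by the authors holds a raw count and a length in bases for each gene. Tools listed without roles in the submitters' processing notes are STAR 2.7.6a, fastp 0.23.2, edgeR 3.40.2, Subread 1.5.1 and featureCounts, with the build hg38. No source used here gives the annotation release, the strand setting or the treatment of reads shared by genes.

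Counts were filtered with filterByExpr (13710 of 20532 genes left), scaled by TMM and tested with glmQLFit and glmQLFTest in edgeR 4.0.16 (R 4.3.3), with p-values adjusted after Benjamini and Hochberg over every tested gene and a threshold of 0.05. The fit was tested on simulated data. Standard errors were derived from the F statistic. CPM are counts divided by the TMM-scaled library size. Replicates of one group differed by slightly more than sampling noise (chi-square per degree of freedom between 1.05 and 1.38), and all 6 libraries were kept. The limit given for IFNB1 covers counting error only.

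The correction fitted splines (5 degrees of freedom) on GC content and length of the GENCODE 44 canonical transcript, known for 13694 tested genes, to each library and used them as offsets. Alternatives were RLE, upper-quartile and library-size scaling, DESeq2 1.42.0, limma-voom (limma 3.58.1), no filter, at least 1 CPM in 3 samples, the replicate block, and leaving out each library. Coordinates are those of the deposited table (hg38). Of its identifiers, 20472 were found in GENCODE 44. Promoters were searched in Python 3.11.15.

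The genes and lists were chosen with earlier results of these data known. Named were PRMT1, all 10 genes and, from each list, the 2 genes with the highest and the 2 with the lowest log2 fold change of those that passed; a gene that this rule names is not reported here. TRIM25, RNF135, ZC3HAV1, IKBKE, IFIT3, CXCL10, MX1, ADARB1, IFNB1, IFNL1 and the single marker genes were named after their values were seen.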

Additional observations from a re-analysis of the deposited data

How the results depend on the processing

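Across the alternatives, 6 genes fell and 3 rose in every setting except the correction for GC content and length, and library size alone. With library size alone MAVS was lower too (-0.29) and 7 fell. Over all tested genes 7593 fell and 4588 rose in that setting, against 6165 and 6078 with TMM scaling. The median over all tested genes was -0.33 there. With the correction, with or without the replicate block, 3 of the 10 genes rose and 3 fell. Of all tested genes, 37.5% rose and 42.7% fell with the correction. These values turned with the correction, each followed by its value with the correction and the replicate block: RIGI 0.21 and 0.21, EIF2AK2 0.21 and 0.21, TICAM1 -0.051 and -0.049, IRF3 -0.020 and -0.022, PPP1CA -0.066 and -0.066, TRADD -0.50 and -0.50, OAS1 -0.023 and -0.026, SOCS1 -0.19 and -0.19, IFNAR1 0.032 and 0.030, ISG15 -0.15 and -0.15, CNPY3 -0.12 and -0.11, and TREX1 -0.29 and -0.29. With the correction RNF135 (-0.065), MX1 (-0.15) and BCL2L12 (-0.067) turned as well. With upper-quartile scaling MAVS turned to -0.022, and with library size alone DGCR8 turned to -0.17. The cause was not tested. Of the 10 genes, 1 was at least 2-fold higher and 2 lower. With library size alone it was 0 and 5, and with the correction 0 and 0. The lower ones numbered 3 with upper-quartile scaling, with no filter, without siPRMT1 replicate 3 and without control replicate 2. At least 2-fold changes over all genes numbered 2095 higher and 2881 lower. With library size alone there were 901 higher and 3975 lower, and with the correction 561 higher and 1408 lower. Leaving out 1 library at a time gave between 12069 and 12159 genes past the threshold, and 9 of the 10 genes each time. The replicate block gave 12219 genes against 12243 and 9 of the 10 genes. Deviations of same-numbered samples had correlations of -0.010, 0.037 and 0.0015, and those of other pairs lay between -0.034 and 0.031. Replicates differed by only slightly more than sampling noise, so these correlations cannot decide whether the number pairs samples. Depth limits TLR3 most, with 49 to 65 reads in siPRMT1 libraries.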

Other observations

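IRF3 is a close neighbour of PRMT1 on chromosome 19: the nearer edge of IRF3 lies 10006 bases from the start of PRMT1, with BCL2L12 between them. The 5 tested genes on either side of PRMT1 were looked at after the value of IRF3 had been seen. All 10 were higher in siPRMT1 cells (44.3% of all tested genes passed as higher), with log2 fold changes between 0.48 for CPT1C and 1.80 for FUZ and a median of 1.16, and all 10 were positive with library size alone. Positive log2 fold changes were found for 90.2% of tested genes in the GC class of IRF3 and 73.2% in the class below it. RRAS had 1.57, SCAF1 1.12, IRF3 1.20 and BCL2L12 1.30 on one side, and AP2A1 0.69, MED25 1.06 and PTOV1 1.51 on the other. Corrected for GC content and length, the 10 had a median of 0.054, with 5 positive and 5 negative values, IRF3 at -0.020 and BCL2L12 at -0.067 among the negative ones. PRMT1 itself was at -3.62, and at -4.76 with the correction. No test of position was made.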
